A study of Mus musculus with 4 samples.

Results

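The clustered protocadherin locus of mouse chromosome 18 was examined for enrichment of methylated DNA in fetal liver. The locus was taken as the window from 37.07 to 38.02 Mb on build mm9, a length of 950 kb, and its members were the non-control probes of a tiling array whose first base lay in that window. By this rule 1121 probes were chosen, of which 1120 were usable, out of 415749 usable probes on the array. Joined with their neighbours they formed 152 regions out of 56653 in the whole data set. Both groups were of C57BL/6J fetal liver, collected by caesarean section on gestation day 18. The control pool came from fetuses of dams fed freely, and the food restricted pool from fetuses of dams given 50% of the control intake from gestation day 10 to 17. By its title, the study looked for genes that link conditions before birth to later disease. Each group was 1 pool described as N = 6, without a statement of whether this counts fetuses or litters, and no source used here gives the fetuses' sex. Whole liver DNA holds the DNA of all liver cell types at that age, including the blood-forming cells of the fetal liver.

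Clustered protocadherins are cell-surface adhesion proteins of the cadherin family, best known in the nervous system, where each neuron uses its own small set of them and matching sets on touching membranes tell self from other. The genes lie in tandem as an alpha, a beta and a gamma cluster and are transcribed in the same direction, toward higher coordinates. In the alpha and gamma clusters each variable exon has its own promoter and is spliced to constant exons shared by the cluster, whereas each beta gene is a single exon. Methylation of these promoters is known to accompany silence of the exon behind them, and the factor CTCF, which binds near them, does not bind its methylated sites. In the RefSeq gene order of assembly GRCm38 the locus holds 14 alpha genes from Pcdha1 to Pcdhac2, then 22 beta genes from Pcdhb1 to Pcdhb22, then 22 gamma genes from Pcdhga1 to Pcdhgc5. Of these 58 genes 5 are of the C type, which stand at the ends of the alpha and gamma clusters and are used more constitutively. Taf7, a subunit of the general transcription factor TFIID, and Slc25a2, a mitochondrial ornithine carrier, also lie within this order, and Diaph1 and Hdac3 follow it. That assembly is a different build from the array's, so regions are given by their mm9 position alone and no region is assigned to a gene or exon.

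The assay was precipitation of methylated DNA with an antibody, labelled and read on a 2-colour array beside total DNA from the same pool. The measure M is log2 of immunoprecipitated over reference signal, shifted so that each array has a median of 0, so that 0 is the level of the array's middle probe. M rises with the methylation and with the CpG density of a fragment and is no percentage of methylated cytosines. There were 2 arrays for each pool, with dyes swapped between them, and a slide carried both pools in the same orientation. These arrays are technical repeats of 1 pool, so no test between the pools was possible, no p-value is given, and values are printed for both slides. Where 4 values are listed, their order is control slide 1, food restricted slide 1, control slide 2 and food restricted slide 2. The precision is limited by the number of arrays.

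The probes did not cover the locus evenly. The first probe began at 37086623 and the last ended at 37980207, with a median spacing of 192 bp between neighbours. The longest stretches without a usable probe were 118.4 kb, from 37679015 to 37797439, and 116.6 kb, from 37304622 to 37421237. Regions typically held 7 probes over 1384 bp (medians). The window was divided into 3 equal lengths of 316.7 kb, with borders after 37386666 and 37703333. The first segment held 38 regions, the middle segment 48 and the last segment 66. Among 1010 other autosomal windows of 950 kb with at least 20 regions, 2 held more regions than the locus.

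Signal in the locus was dimmer than on the array as a whole. Immunoprecipitated probes well above background made up 65.2%, 71.9%, 66.0% and 72.7% of the locus on the 4 arrays, against 72.2%, 79.9%, 72.0% and 80.6% of all probes. The median background-subtracted reference signal was 80.7, 74.2, 109.7 and 103.2 in the locus and 115.4, 114.9, 162.8 and 164.6 over all probes. The reference channel holds total DNA, so this gap lies in the total DNA signal of the probes. No probe of the locus was saturated. In the deposited value table the columns of the food restricted array of slide 1 and the control array of slide 2 hold each other's scanner values, and every pool label below follows the scanner files, whose ratios have the direction given by the titled dyes. The sample descriptions mark a dye swap at both food restricted arrays, which does not match the titles, where 1 array of each pool is swapped. The value table goes with the descriptions, since both its food restricted columns hold arrays with immunoprecipitated DNA in Cy3 and both its control columns arrays with it in Cy5. Under that assignment pool and dye orientation cannot be told apart. Which pool the food restricted array of slide 1 and the control array of slide 2 belong to is therefore not settled by the files. This bears on every difference between the pools. Each pool kept 1 array position on both slides, which cannot be told apart from the pool itself.

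Enrichment was higher in the locus than around it, in both pools. The median M of the 152 regions was 0.33, 0.37, 0.73 and 0.55. Over the 1357 regions of the rest of chromosome 18 it was -0.21, -0.18, -0.21 and -0.14, and over the 54390 other autosomal regions -0.06, -0.08, -0.08 and -0.07. The locus lay above both on all 4 arrays, and the difference from the rest of the chromosome was 0.54 on slide 1 and 0.82 on slide 2 in the control pool. The 59 regions of the 1 Mb before the window had medians of -0.31, -0.21, -0.36 and -0.35, and the 40 regions of the 1 Mb after it -0.17, -0.17, -0.22 and -0.05. With normexp background correction the difference from the rest of the chromosome was 0.34. Without probes dim in the immunoprecipitated channel it was 1.42, but this filter selects probes on the signal that enters M. Among the other windows of 950 kb, 305 of 1010 had a higher median M than the locus.

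The locus was richer in strongly enriched regions. M above 1 was measured at 70 regions of control liver and 63 regions of food restricted liver, which is 46.1% and 41.4% of the locus. The same shares were 28.7% and 26.9% on the rest of the chromosome and 30.1% and 28.2% on the other autosomal regions. With the mean of all 4 arrays, 44 regions were above 2, which is 28.9% against 14.7% of the other autosomal regions. Above 3 there were 20 regions, which is 13.2% against 5.16%. At the lower end, 19 regions had M below -1, which is 12.5% against 25.2%. Among regions with M from -1 to 0, the centred reference signal on the control array of slide 1 had a median of -1.0 in the locus. On the other autosomal regions it was -0.01. Whether a dim reference signal kept M from falling lower in the locus was not tested. Of the other windows, 62 of 1010 had a larger share of regions above 3 and 156 a larger share above 1.

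The last segment stood above the others in its median. Its 66 regions had a median M of 1.45, 1.34, 1.62 and 1.42. The 38 regions of the first segment had medians of 0.00, 0.04, 0.05 and -0.09, and the 48 regions of the middle segment -0.01, -0.06, 0.18 and 0.00. The last segment was thus higher on every array, by 1.44 in the control pool against the first and middle segments combined. In the control pool 57.6% of its regions exceeded 1, against 39.5% of the first segment and 35.4% of the middle segment. The size of this contrast changed with the processing. It was 0.39 with loess within arrays and 0.43 with normexp, and without probes dim in the immunoprecipitated channel it was 0.91. In that last setting 676 of the 1120 probes remained, and the medians of the segments were 2.76, 1.22 and 2.35 in the control pool, so the first segment then stood above the last. Since that setting selects probes on the signal that enters M, it is no independent check of the order of the segments. On the control array of slide 1, the probes with an immunoprecipitated signal well above background made up 55.7% in the first segment, 61.1% in the middle segment and 74.0% in the last segment. The first segment held 8 of the 20 regions above 3, the middle segment 1 and the last segment 11.

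**Figure D1:**
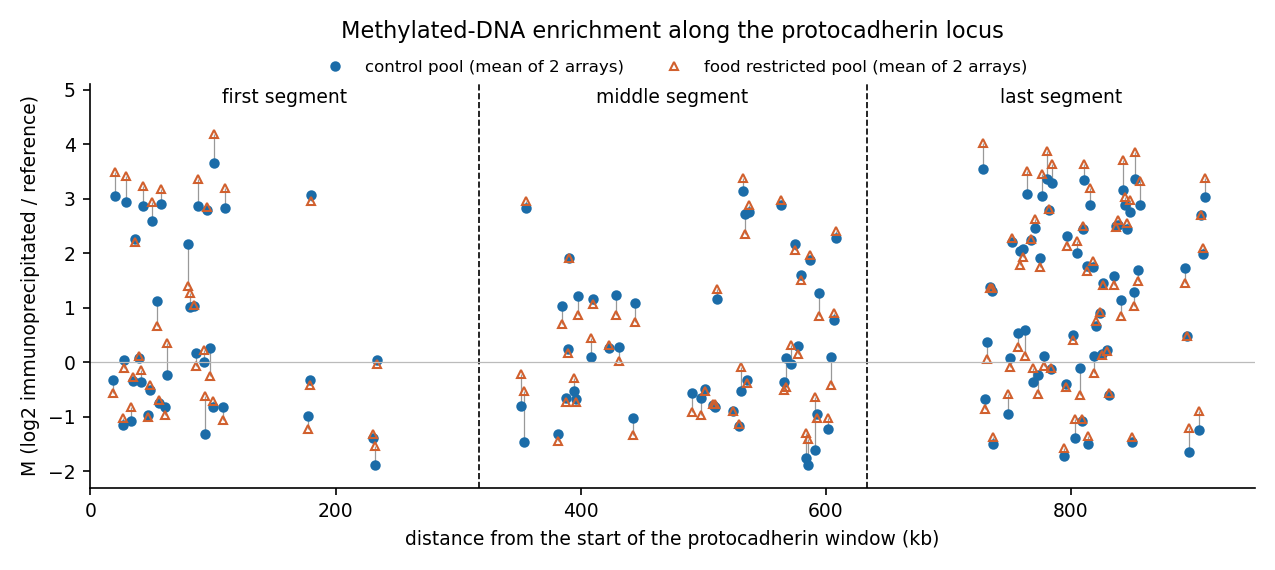
Mean M over the 2 arrays of each pool (log2, vertical axis) for the 152 regions, by distance from the start of the window in kb (horizontal axis). Filled circles are the control pool, open triangles the food restricted pool, a grey line joins the pools at a region, and dashed lines mark the borders of the segments. High and low regions lie side by side in each segment, the pools lie close together, and the last segment has the most regions above 1, 38 of 66 in the control pool.

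Along 50 kb bins the level changed in steps. The bin from 37170000 to 37219999 had the highest median M, 3.01, but held only 3 regions. The bins from 37820000 to 37869999 and from 37870000 to 37919999 were the most densely tiled, with 20 and 27 regions. Their median M was 1.96 and 1.43, with 12 and 14 regions above 1. The bins from 37920000 and from 37970000 followed with medians of 1.59 over 7 regions and 2.37 over 4 regions. The lowest bin ran from 37270000 to 37319999, with a median of -1.35 over 3 regions. In the first segment the opening bin and the one from 37120000, with 14 and 15 regions, had medians of -0.14 and 0.12. The 4 bins from 37820000 to the end of the window therefore stood above the bins of the middle segment, where the highest median, from 37670000, was 0.34 over 4 regions.

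Each segment held at least 1 region with mean M above 3, a level that 5.16% of the other autosomal regions also exceeded. The highest of the first segment was chr18:37170908-37171476, where 4 probes gave M of 3.66, 4.03, 3.64 and 4.32. Its mean of 3.91 was the highest of the locus. Next in that segment were chr18:37089487-37090929, with 2.98, 3.39, 3.13 and 3.59 over 8 probes, and chr18:37098699-37099934, with 3.02, 3.42, 2.87 and 3.41. All 3 were enriched at about the same level on both slides, with the food restricted array above the control array on each. This order of the pools did not hold in every setting. Mean D at chr18:37170908-37171476 was 0.53, and it was -0.14 with quantile normalization between arrays. In the immunoprecipitated channel alone it was -0.56, -0.31 and -0.29 at the 3 regions.

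In the middle segment the highest region was chr18:37601873-37603114, with M of 3.22, 3.30, 3.07 and 3.47 over 7 probes. It was the only region of that segment above 3. The next were chr18:37632663-37634617, with 3.0, 2.87, 2.76 and 3.09 over 11 probes, and chr18:37424440-37425624, with 2.94, 2.90, 2.72 and 3.0 over 6 probes. At both of these the pools were in opposite order on the slides.

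In the last segment the highest region was chr18:37797440-37798654, the first one after the longest stretch without probes. Its 8 probes gave M of 3.48, 3.92, 3.61 and 4.12. It was followed by chr18:37849350-37850951, with 3.57, 3.97, 3.15 and 3.79 over 9 probes, and by chr18:37922047-37923066, with 3.40, 3.74, 3.34 and 3.98 over 7 probes. Each of these 3 was higher on the food restricted array of both slides, and on every array all of their probes had an immunoprecipitated signal well above background. Mean D at the first of them was 0.47 and turned to -0.12 with quantile normalization, which left 0.06 and 0.03 at the others. In the immunoprecipitated channel alone it was -0.42, -0.73 and -0.37.

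The lowest regions were of like depth in the 3 segments. In the first segment chr18:37301701-37303062 was lowest, with M of -2.02, -1.31, -1.76 and -1.76, and the region directly before it, chr18:37300222-37301546, had a mean of -1.35. The next lowest there, chr18:37246685-37247983, had -1.11. In the middle segment chr18:37654992-37656326 had -2.18, -1.55, -1.57 and -1.26. Its neighbour chr18:37653226-37654543 had a mean of -1.53, and chr18:37451247-37452262 had -1.38. In the last segment chr18:37863416-37864881 was lowest with -1.82, -1.51, -1.61 and -1.63, followed by chr18:37806295-37807346 and chr18:37883464-37884397 with means of -1.44 and -1.43. At most of these regions the immunoprecipitated signal was well above background at a minority of probes, 0 to 3 of 7 at chr18:37654992-37656326, so how low these regions were is less certain than that they were low.

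The regions with the most probes, 12 each, were chr18:37150584-37152344 and chr18:37644023-37645968. The former had M of 0.90, 1.25, 1.13 and 1.30, and the latter 2.19, 2.02, 2.13 and 2.11. At the latter all arrays lay between 2.02 and 2.19, with both control values above both food restricted values. This order was slight, with D of -0.16 on slide 1 and -0.02 on slide 2. Mean D there turned to 0.09 with normexp and to 0.27 with loess.

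High and low regions often adjoined. Between the 131 pairs of neighbouring regions at most 5 kb apart, the median size of the difference in mean M was 1.71, and at 56 pairs, or 42.7%, it was above 2. Over 36426 such pairs on the other autosomal regions the median size was 1.04 and 24.0% were above 2. The steepest step was between chr18:37168802-37170450 and the highest region of the locus, 457 bp further on, where M changed from -0.91, -0.64, -0.71 and -0.78 to 3.66, 4.03, 3.64 and 4.32. The rise in the mean of the 4 arrays was 4.67. A fall of the same order followed the first region of the last segment. From chr18:37797440-37798654 to chr18:37799119-37800823, across 464 bp, mean M changed from 3.78 to -0.76. Across 490 bp, from chr18:37883464-37884397 to chr18:37884888-37886520, it changed from -1.43 to 3.04. All 3 steps were present on each of the 4 arrays.

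At single probes the steepest step was a climb over several positions. From 37168802 to 37169583 the 6 probes had a mean M between -2.07 and -0.92, and none was well above background in the immunoprecipitated channel on more than 2 arrays. The probe at 37170004 had -0.39. The next probes, at 37170209 and 37170392, had 1.61 and 2.66 and were well above background on all 4 arrays. The 4 probes from 37170908 to 37171476 lay between 3.78 and 4.21. The change from low to high enrichment was thus spread over several consecutive probes. All arrays rose at each step from the probe at 37170004 to the one at 37171034.

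The steps had a common direction within the tiled stretches. For this comparison, chosen after the values had been seen, probes at most 500 bp apart were joined into runs without a limit of length. A run was used if it was at least 2000 bp long and had at least 3 probes in each of its 3 equal parts. The locus held 46 such runs with a median length of 3451 bp. In 38 of them, or 82.6%, the median M of the high-coordinate end was above that of the low-coordinate end, which is the direction in which the genes are transcribed. On the rest of chromosome 18 this held for 178 of 365 runs, or 48.8%, and on the other autosomal regions for 7121 of 14233, or 50.0%. Those backgrounds hold genes of both strands.

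The rise was large as well as frequent. The median M was -0.49 at the low end, -0.15 in the middle and 2.30 at the high end, and the median rise over the 46 runs was 2.27. A rise of at least 1 was measured in 32 runs, or 69.6%, and a fall of at least 1 in 5. On the other autosomal runs the shares were 29.1% and 28.9%. A rise of at least 3 was measured in 16 runs, or 34.8%, against 6.77%. The median rise on the 4 arrays was 2.13, 2.16, 2.03 and 2.35, with 39, 38, 38 and 38 runs rising, and 38 runs rose on every array. Both pools thus showed the same direction at the same runs.

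All 12 runs of the middle segment rose, as did 12 of 14 in the first segment and 14 of 20 in the last segment. The median rise was 2.07, 2.75 and 1.91 in the first, middle and last segment. The largest was at chr18:37654992-37657781 in the middle segment. There the low end had M of -2.38, -1.55, -1.57 and -1.26 and the high end 3.64, 4.46, 3.49 and 4.39, so the arrays did not overlap between the ends. At chr18:37423097-37425624 mean M rose by 4.83, and at chr18:37177600-37180806 and chr18:37110552-37113392 by 4.76 and 4.67. The smallest rise, 0.17, was at chr18:37635267-37638532.

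The exceptions lay in the first and last segments. In the first segment chr18:37148627-37152344 fell by 1.02 and chr18:37167037-37170450 by 1.71. The latter is the stretch directly before the highest region of the locus. Its last probes, at 37170209 and 37170392, had mean M of 1.61 and 2.66, and the next probe started more than 500 bp on. With runs joined at 1000 bp, 6 of 43 runs fell. In the last segment 6 runs fell, among them chr18:37882349-37884397 by 3.22, chr18:37962578-37967176 by 2.93 and chr18:37898418-37901807 by 2.28. The run at chr18:37904365-37911416 fell by 0.14, with 1 array rising, whereas 7 of the 8 fell on every array. The falling runs of the last segment lay at 37876695 and beyond, in the part of the window where rising runs also stood.

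**Figure D2:**
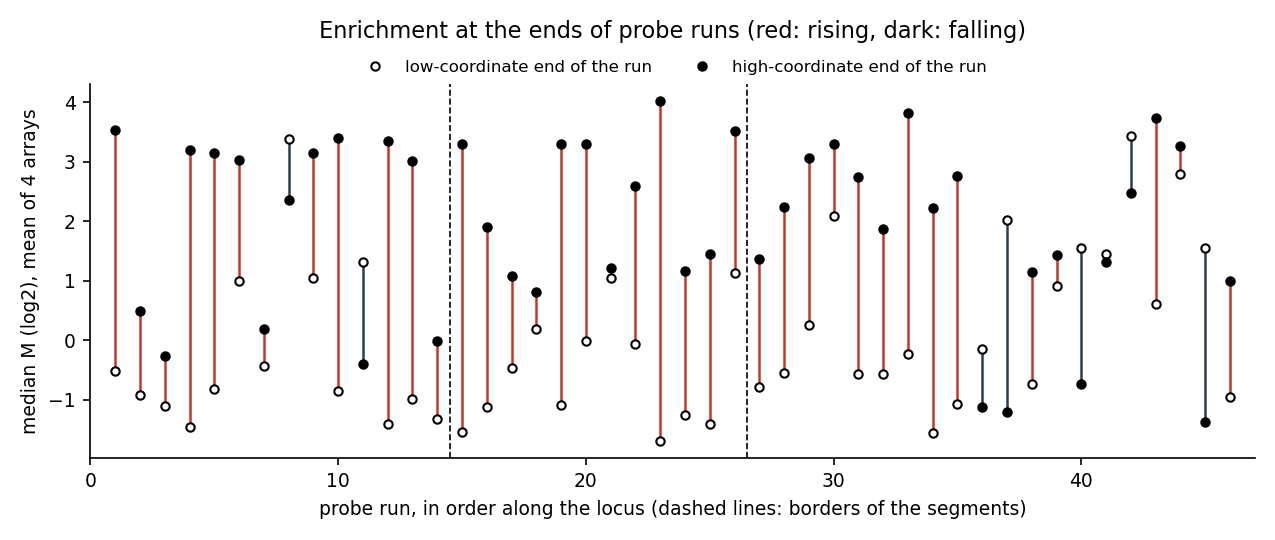
Median M (log2, mean of 4 arrays, vertical axis) of the low-coordinate end (open circles) and high-coordinate end (filled circles) of the 46 runs, in order along the locus (horizontal axis). Red lines join the ends of the 38 rising runs and dark lines those of the 8 falling runs, and dashed lines mark the borders of the segments. The middle segment has no falling run, and the last segment has 6.

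By distance from the low-coordinate end of a run the level first dipped and then climbed. The median M of the probes of the locus was -0.03 in the first 500 bp and -0.38 and -0.63 in the following bins of that width. It was 0.01 from 1500 to 1999 bp, 0.50 and 1.09 in the next bins, 1.98 from 3000 to 3499 bp and 3.02 from 3500 to 3999 bp, where 45 probes remained. On the other autosomal runs the medians of the same bins stayed between -0.17 and 0.06. The last segment began higher, at 1.06 in the first bin, and dipped to -0.61 before it rose to 3.05. The first segment stayed between -0.84 and 0.13 up to 2999 bp and reached 2.64 from 3000 to 3499 bp. The middle segment reached 0.83 from 2000 to 2499 bp and 1.91 in the last bin. Few probes lay in the last bin of the first and middle segments, 9 in each. The bins do not hold the same runs, since the median length was 3451 bp and only longer runs reach the later bins. How much of the climb came from this change of runs was not tested.

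**Figure D3:**
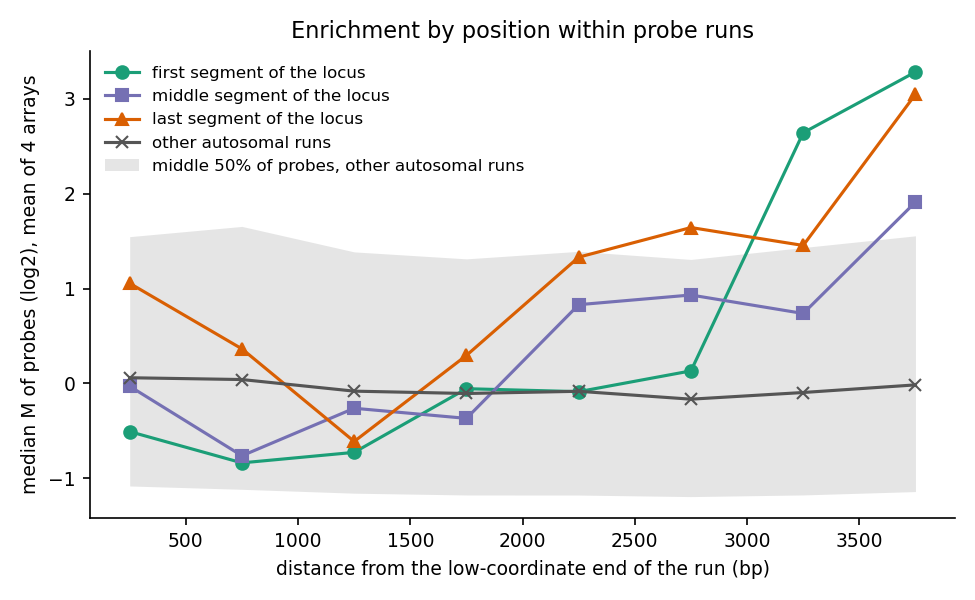
Median M of probes (log2, mean of 4 arrays, vertical axis) by distance from the low-coordinate end of their run (bp, horizontal axis, bins of 500 bp), for the runs of each segment and for all other autosomal runs. The grey band holds the middle 50% of the probes of the other autosomal runs. Each segment ends above where it begins, while the other autosomal runs stay between -0.17 and 0.06. Only the longer runs reach the later bins.

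The rise was present in the immunoprecipitated channel and, to a smaller extent, in the reference channel. In the immunoprecipitated signal alone 39 of the 46 runs rose, with a median of 2.83. In the reference signal alone 36 rose, with a median of 0.62. The reference signal holds total DNA, and the part of it in the rise of the ratio was not tested. Without probes dim in the immunoprecipitated channel 13 runs could still be used and 10 of them rose. Set beside 481 other autosomal windows of 950 kb with at least 10 runs, the share of rising runs in the locus was exceeded in 3. Counting either direction, 6 windows were at least as one-sided. The median rise was exceeded in none of the 481 windows, the highest being 1.79. In the other direction the lowest window median was -2.33, a fall larger in size than the rise of the locus.

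The pools differed little in the locus. The difference D subtracts, within a slide, control M from food restricted M. Its median over the 152 regions was 0.06 on slide 1 and 0.01 on slide 2. On the other autosomal regions it was 0.03 and 0.09. In the first segment the medians were 0.13 and 0.06, in the middle segment -0.05 and 0.00, and in the last segment 0.09 and 0.01. The locus median turned to -0.02 with quantile normalization between arrays and to -0.15 with centring on the densest value, so no direction can be given for it. In whole liver, a shift in the mix of cell types and a shift of methylation within cells cannot be told apart. The median size of the mean D was 0.18, as on the other autosomal regions. D was above 0 on both slides at 49 regions and below 0 on both at 40, which is 32.2% and 26.3% against 39.1% and 23.8% of the other autosomal regions, and the slides differed in sign at 63. Across the 152 regions D correlated between the slides at r = 0.30, a description over regions that share the same pools and arrays. M itself correlated at r = 0.972 and 0.979 between the pools on slides 1 and 2, and at 0.962 and 0.979 between the arrays of the control and the food restricted pool.

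To be called higher or lower, a region needed D of 0.5 or more in size, in the same direction, on each slide. Of the 152 regions 2 were called higher, which is 1.32%, while over all regions of the array 4.55% were called higher. No region of the locus was called lower, against 0.643% over all regions. At 1 region D passed this size with opposite signs, against 0.717% over all regions. The share of higher calls was above that of the locus in 792 of 1010 windows. The count was sensitive to the processing. After loess 28 of the 152 regions were higher, a larger share than the 8.53% of all regions. With means over probes 0 were higher, against 3.11% of all regions. Whether the locus lay below or above the whole array in its share of higher calls thus depended on the setting. With the 2 arrays of unsettled pool exchanged, a setting added after seeing the data in which pool and dye orientation cannot be told apart, 8 regions were higher and 2 lower, against 2.52% and 1.03% of all regions.

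Both regions called higher had M below 0 on all 4 arrays. At chr18:37163063-37164394 in the first segment, 9 probes gave M of -1.34, -0.75, -1.30 and -0.50, and D was 0.60 and 0.79. With normexp D was 0.03 and 0.07 and the call was lost, as it was with loess, quantile normalization, centring on the densest value, means over probes, without dim reference probes and with the running median of D along M taken off. The immunoprecipitated signal was well above background at 1, 2, 0 and 1 of these probes, so most of its probes were near background in both pools, and without probes dim in that channel the region was not measured. At chr18:37660438-37661774 in the middle segment, 7 probes gave M of -1.90, -0.62, -1.32 and -0.64, and D was 1.28 and 0.68. With normexp D was 0.12 and -0.01, and without probes dim in the immunoprecipitated channel it was -0.05 and 0.07, so that the call was lost in both. It was also lost with loess, means over probes, the immunoprecipitated channel alone and the running median taken off. Here 3, 4, 3 and 4 of the probes were well above background. The immunoprecipitated signal alone differed by 1.01 on slide 1 and by 0.07 on slide 2, and the reference signal by 0.02 and 0.29. On both slides the food restricted values lay above the control values at these regions. The region with opposite signs, chr18:37577599-37577937, had 3 probes, none well above background in the immunoprecipitated channel, and D of 0.76 and -0.71.

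Just below the size for a call were 4 strongly enriched regions on the higher side. At chr18:37797440-37798654 D was 0.44 and 0.51, at chr18:37845966-37847461 0.42 and 0.42, at chr18:37089487-37090929 0.41 and 0.47, and at chr18:37925327-37926707 0.40 and 0.49. On the lower side the nearest were regions of middling enrichment. D was -0.49 and -0.57 at chr18:37637053-37638532, where M was 0.16, -0.33, 0.01 and -0.56. At chr18:37876695-37877785 it was -0.48 and -0.51, and at chr18:37123970-37125480 -0.47 and -0.43. At chr18:37673011-37674695 it was -0.61 and -0.43. The regions nearest to a call thus differed in level, those on the higher side having M around 3 and those on the lower side M between -0.35 and 0.89.

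The difference followed the level of enrichment. For the 20 regions with mean M above 3, D had a median of 0.36 on the former slide and 0.50 on the latter, and 19 were above 0 on both slides. None of the 20 was called, against 23.8% of the other autosomal regions of that class, whose median D was 0.33 and 0.50 and of which 92.4% were above 0 on both slides. The 22 regions between 1 and 2 had median differences of -0.23 and -0.06, and the 27 between 0 and 1 had -0.01 and -0.20. Below -1, 19 regions had 0.28 and 0.20. On the other autosomal regions the medians of these classes were -0.13 and -0.05, -0.11 and -0.05, and 0.26 and 0.27. In these classes the medians of the locus and of the other autosomal regions had the same sign. In the remaining classes the locus had 0.07 and -0.03 over 40 regions from -1 to 0, where the other autosomal regions had 0.08 and 0.09, so the sign differed on slide 2. It had -0.02 and 0.17 over 24 regions from 2 to 3, where the other autosomal regions had -0.01 and 0.12.

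The channels behind the most enriched class moved together. In the 20 regions above 3 the immunoprecipitated signal of the food restricted pool, centred on each array, was lower than that of the control pool, by a median difference of -0.41 on slide 1 and -0.36 on slide 2. The reference signal was lower still, by -0.50 and -0.54. The other autosomal regions of the class had -0.39 and -0.32 in the immunoprecipitated signal and -0.52 and -0.56 in the reference signal. The higher ratio in the food restricted pool at these regions therefore went with a lower signal in both channels. With the running median of D along M taken off, the median D of the locus was -0.03 and no region was called higher and 2 were called lower, against 1.09% and 0.994% of all regions in that setting.

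**Figure D4:**
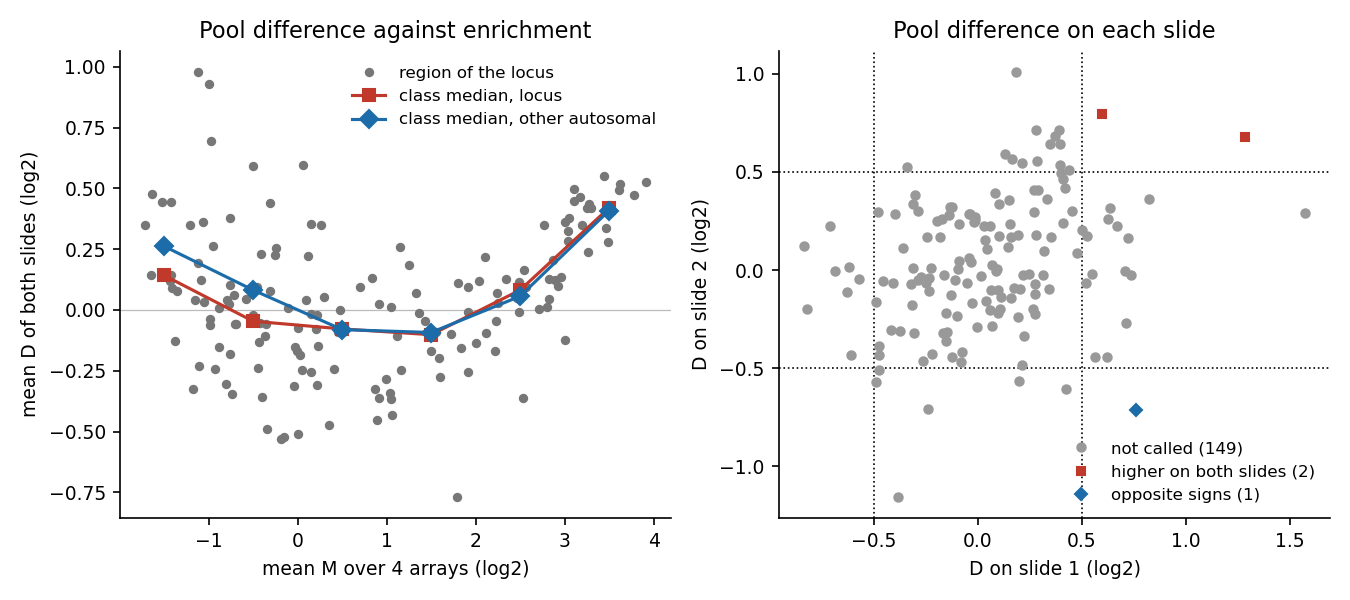
Left, mean D of both slides (log2, vertical axis) against mean M over 4 arrays (log2, horizontal axis) for the 152 regions, with the class medians of the locus (squares) and of the other autosomal regions (diamonds). Right, D on slide 1 (horizontal axis) against D on slide 2 (vertical axis), with dotted lines at 0.5 and -0.5. The medians of both curves are highest in the class of M above 3, and 2 of the 152 regions lie past 0.5 on both slides.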

How the data were processed

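Spots of the 4 arrays were read with Agilent Feature Extraction, version 10.5.1.1, which both the submitters' processing notes and the headers name. The deposited processed intensity had, per the file headers, the local background removed, surrogates in place of dim values, and a linear dye correction. The deposited log10 ratio of red over green was not used. The deposited value table holds the log2 ratio of red over green, with neither dye turning nor centring, and its columns have medians from -0.23 to 0.24. Its columns of the food restricted array of slide 1 and the control array of slide 2 equal each other's scanner file within 0.001 at 100% of probes, and in the alternative that uses it columns were reassigned by this match. Probe positions are on mm9, per the file headers. For the antibody, shearing and amplification, details are not given in the sources used.

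Of 420288 spots 4474 were controls and 65 probes had outlier flags. M was log2 of processed immunoprecipitated over reference intensity, with the dyes taken from the titles, minus its array median. Probes whose starts lay at most 500 bp apart were joined, stretches over 2000 bp were divided into pieces of equal length, and pieces with at least 3 probes were kept as regions. A region's value was the median over its probes, and channel values were medians of log2 intensity, centred for each channel of an array, which need not add up to D. A region was dim in a pool where under 50% of its probes were well above background on both arrays.

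Regions were named by rule: in each segment the 3 highest and 3 lowest by mean M, those called, the 2 with the most probes and the 3 steepest pairs of neighbours. Those nearest to a call, and the runs named, were chosen after their values were seen. The locus, its division and the rules were chosen with earlier results of these data known. The normexp alternative used the median spot signal with an offset of 50. Joining, calling and the direction of runs were tested on simulated data. Python 3.11.15, numpy 2.4.6, pandas 2.3.3, R 4.3.3 and limma 3.58.1 were used.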

Additional observations from a re-analysis of the deposited data

How the results depend on the processing

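The locus level and its excesses below stayed above 0 in the 13 alternatives run for each, while the median D took both signs over its 16. Leaving out probes dim in the immunoprecipitated channel selects on the signal that enters M, so that setting is no independent check of the level. The median M of the control pool, 0.53, was 0.29 with normexp, 0.30 without centring, 1.66 with centring on the densest value and 2.12 without probes dim in the immunoprecipitated channel, and 0.33 to 0.73 with 1 slide left out. The excess of the last segment, 1.44, was 0.43 with normexp, 0.39 with loess, 1.30 without dim reference probes, 0.91 without dim immunoprecipitated probes, 1.18 with means over probes, 1.21 with joining at 300 bp, 1.09 at single probes and 1.4 to 1.48 with 1 slide left out. The excess over the rest of the chromosome, 0.68, was 0.34 with normexp, 1.42 without dim immunoprecipitated probes and 0.54 to 0.82 with 1 slide left out.

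The median D, 0.036, was 0.14 with loess, -0.018 with quantile normalization, 0.12 without centring, -0.15 with the densest value, 0.093 without dim reference probes, -0.23 in the immunoprecipitated channel alone, 0.11 with means, 0.089 with joining at 300 bp, 0.096 at single probes, -0.030 with the running median taken off and 0.010 to 0.062 with 1 slide left out. The number of regions called higher, 2 (4.55% of all regions of the array), was 7 with normexp (2.72%), 28 with loess (8.53%), 1 with quantile normalization (1.18%), 6 without centring (7.19%), 1 with the densest value (1.55%), 6 in the immunoprecipitated channel alone (3.33%), 0 with means (3.11%), 6 with joining at 300 bp (5.38%), 0 with the running median taken off (1.09%), 15 at a size of 0.3 (12.2%), 0 at a size of 1 (0.192%) and 8 with the 2 arrays exchanged (2.52%). With normexp, loess, the immunoprecipitated channel alone and the 2 arrays exchanged, the share of the 152 regions called higher was above that of all regions. In the report it was below. These counts do not hold the same regions, and neither region called in the report was called with normexp or loess. The number called lower, 0 (0.643%), was 1 with quantile normalization (1.03%), 6 with the densest value (2.33%), 11 in the immunoprecipitated channel alone (1.73%), 2 with joining at 300 bp (0.621%), 2 with the running median taken off (0.994%), 9 at a size of 0.3 (2.68%) and 2 with the arrays exchanged (1.03%). At single probes 128 were higher (9.85%) and 32 lower (2.48%). With 1 slide left out, 15 to 17 regions were higher (12.4% to 13.8%) and 7 to 8 lower (3.75% to 4.49%), since a single slide then made the call. The slide paired the arrays, and without this block, with D taken across the slides, 3 regions were higher (3.96%) and 0 lower (0.44%). The deposited value table gave the same counts as the scanner files.

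The count of rising runs, 38, was 10 of 13 usable runs without dim immunoprecipitated probes. In the other settings that could be run it lay between 34 and 39 above a rise of 0, and was 32 at a rise of at least 1. The number of usable runs was not the same in all of them. The count of 34 was out of 40 runs, without dim reference probes, and joining at 1000 bp gave 43 runs. The settings for runs and the exchange of arrays were chosen after seeing the data. The cause of the changes was not tested, except that fewer probes remained in the settings without dim ones. Variation among animals, litters, poolings and precipitations was not measured, since each group was 1 pool.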

Other observations

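More regions of the locus were dim in the control pool, and probes over the whole array showed a gap in the same direction. The immunoprecipitated signal was well above background at 72.2% and 72.0% of all probes on the control arrays. On the food restricted arrays these shares were 79.9% and 80.6%. The share of dim regions over all regions was not computed. The immunoprecipitated signal was dim at 37 of the 152 regions in the control pool and at 28 in the food restricted pool, with 27 dim in both. In the first segment 14 and 12 of 38 regions were dim, in the middle segment 14 and 10 of 48, and in the last segment 9 and 6 of 66.

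Reference signal, as log2 centred on the array, was below 0 among the regions of the locus with M from -1 to 0, with medians of -1.0, -0.94, -1.07 and -0.99 on the 4 arrays, against -0.01, 0.10, -0.01 and 0.10 on the other autosomal regions. Among regions above 3 the medians were 0.10, -0.48, 0.19 and -0.39 in the locus and 0.39, -0.15, 0.44 and -0.14 elsewhere, with the control arrays above the food restricted arrays in both.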
